A study of Mus musculus with 6 samples.

Results

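The genes described here are 40 transcripts of glucose breakdown, glucose synthesis, the tricarboxylic acid (TCA) cycle and the response to low oxygen, chosen by name from a table of 46078 gene rows. All 40 were found, each on 1 row, and all 40 passed the filter on low counts. RNA with poly(A) tails was sequenced from mouse lung cells labelled as alveolar macrophages, the resident phagocytes of the airspaces. In the 3 control libraries (Car4fl/fl) Car4, the gene of a carbonic anhydrase held at the cell surface, was flanked by loxP sites on both alleles. The other 3 libraries (Car4fl/fl-CD11cCre, called Cre libraries here) had these floxed alleles plus Cre driven by CD11c. Cells of all 6 libraries were untreated, and the mice's age is not stated in the labels. CD11c is the product of Itgax and is made by alveolar macrophages and by dendritic cells. No mice with Cre and unfloxed Car4 were included, so that effects of the Cre transgene and of Car4 loss cannot be told apart.

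Glycolysis splits glucose into pyruvate in the cytosol, and the TCA cycle oxidises the carbon of pyruvate, fats and amino acids in the mitochondrion. Gluconeogenesis runs part of glycolysis backwards, and fructose bisphosphatase (Fbp1) undoes the step that phosphofructokinase catalyses. Under low oxygen the transcription factor HIF1alpha escapes hydroxylation by prolyl hydroxylases and raises the genes of glucose uptake, glycolysis and lactate export. Resident alveolar macrophages live in an airspace rich in oxygen and poor in glucose, and are known for their reliance on mitochondrial oxidation and lipid use.

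Libraries held 53824475 to 65443314 counts. Levels are CPM (counts scaled to a common library size) after TMM scaling, a correction for library composition. Levels of different genes are compared as CPM per kilobase of annotated exon. Log2 fold changes are Cre over control, and errors of fold changes are standard errors. At these depths 3 counts, taken as the detection floor, equal 0.0465 to 0.0557 CPM. Car4 itself was at 499, 385 and 270.4 CPM in the controls and at 40.2, 46.9 and 36.3 CPM in the Cre libraries, a log2 fold change of -3.23 ± 0.22 (edgeR quasi-likelihood, Benjamini-Hochberg adjusted p 0.0047). Without control 2 its adjusted p in edgeR was 0.0549. The Cre libraries were not alike: along the first principal component the controls lay between -20.1 and -14.4, Cre 1 at -1.41 and Cre 2 and Cre 3 at 28.7 and 27.1. All 14 markers of alveolar macrophages stood at 1 CPM or more in every library. In bulk samples a change in the mix of cells and a change of RNA per cell cannot be told apart.

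Most of the 40 transcripts were nearly level between the groups. The largest log2 fold changes in size were those of Fbp1 and Ndrg1. Fbp1 was much higher in 2 Cre libraries, and Ndrg1, a hypoxia target, was low in every Cre library and in 1 control. None of the 40 passed an adjusted p of 0.05 in edgeR in either direction, where the background was 0.0132% of the 15147 tested genes (0.0066% higher and 0.0066% lower). The count was also 0 of 40 in limma-voom and in DESeq2, where DESeq2 called 2.27% of tested genes higher and 1.43% lower. At an unadjusted edgeR p under 0.05, 5 were higher (Fbp1, Hk3, Pgam1, P4ha1 and Egln3) and 4 lower (Ndrg1, Pfkp, Pdk1 and Slc16a3), where the background was 6.54% of tested genes higher and 6.28% lower. The groups did not overlap for 4 higher members (Fbp1, Hk3, Pgam1 and P4ha1) and 4 lower ones (Pfkp, Pkm, Pdk1 and Slc16a3), against 8.63% and 9.22% of tested genes. The median log2 fold change of the 40 was 0.02, and 32 of them lay within 0.25 of zero. Over all tested genes the median was -0.002, with 11285 of 15147 within 0.25.

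**Figure D1:**
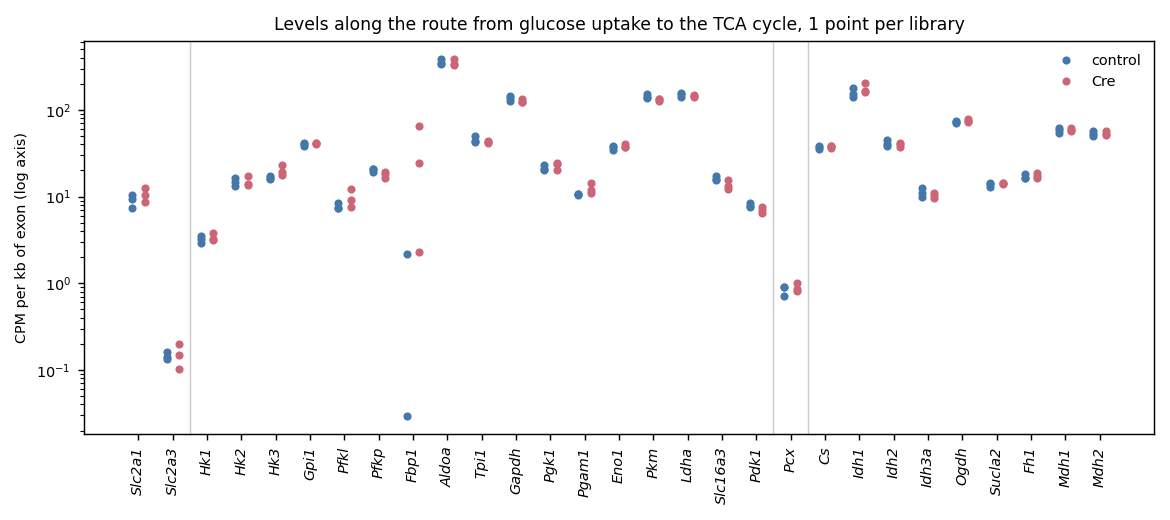
CPM per kilobase of exon on a log axis for 29 members in the order of the route from glucose uptake to the TCA cycle, 1 point per library, controls left and Cre libraries right of each position. The points of a gene lie close together except for Fbp1, whose libraries run from 0.0293 to 64.3 (control 2, with no Fbp1 counts, is not drawn).

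Per kilobase, the aldolase gene Aldoa was the most abundant of the 40 in the control libraries, at 358 ± 28.9 CPM per kilobase (mean ± SD, n = 3, as for all such values). The cytosolic isocitrate dehydrogenase gene Idh1 (157 ± 18.3), Ldha (150.04 ± 7.82), Pkm (143 ± 8.81) and Gapdh (136 ± 9.56) followed. The ranges of these 4 over the control libraries overlapped, although within each control library Ldha stood above Pkm and Pkm above Gapdh. At the other end stood Pcx at 0.841 ± 0.103, Fbp1 at 0.0293, 0 and 2.17 in the 3 controls, Ndrg1 at 0.606 ± 0.441, Ankrd37 at 0.262 ± 0.0606, Adm at 0.158 ± 0.0747, Slc2a3 at 0.146 ± 0.0144 and Egln3 at 0.0957 ± 0.0144 CPM per kilobase. The bottleneck enzymes of early glycolysis were of middle rank, with hexokinase genes at 3.25 to 16.6 and phosphofructokinase genes Pfkl and Pfkp at 7.73 ± 0.609 and 20.4 ± 0.962 CPM per kilobase. Levels of genes with near-identical copies are uncertain, since reads that fit several places may have gone uncounted. Gapdh had 90 annotated copies of at least 95% identity over at least 200 bases, whose summed counts were 3.69% of its own. Bnip3, Eno1, Gpi1, Higd1a, Ldha, Pgam1, Pgk1, Pkm and Tpi1 had 1 to 4 such copies each, with at most 0.892% of the member's counts.

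Glucose enters these cells through facilitative transporters, of which Slc2a1 (GLUT1) is the widespread form. Slc2a1 was at 36.2, 32.9 and 25.6 CPM in the controls and at 30.1, 43.7 and 36.4 CPM in the Cre libraries. The groups overlapped, with a log2 fold change of 0.22 ± 0.16 and a 95% interval of -0.15 to 0.59. Slc2a3 (GLUT3), the high-affinity form, was close to silent at 1.06 ± 0.105 CPM against 1.08 ± 0.343 CPM.

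Hexokinases trap glucose as glucose 6-phosphate, and the 3 genes were not equally placed. Hk3, a myeloid form, was at 59.4, 59.9 and 64.0 CPM in the controls and 65.3, 70.8 and 85.2 CPM in the Cre libraries. Every Cre value lay above every control value, and Cre 3 stood highest. The log2 fold change was 0.27 ± 0.10, and edgeR gave an adjusted p of 0.296. Hk2, the inducible form that binds mitochondria, was at 79.8, 87.1 and 98.3 CPM against 81.3, 104 and 83.2 CPM, and Hk1, the housekeeping form, at 27.7 ± 2.41 against 29.0 ± 2.73 CPM. Both overlapped between the groups. Of the summed hexokinase level per kilobase, Hk3 made up 47.9 ± 1.14% in controls and 52.1 ± 4.99% in Cre libraries, Hk2 42.6 ± 1.99% and 39.0 ± 4.26%, and Hk1 9.41 ± 1.21% and 8.88 ± 0.858%. Hkdc1 held less than 1%.

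Phosphofructokinase commits sugar to glycolysis, and its liver-type and platelet-type genes had fold changes of opposite sign that did not pass the test. Pfkl, the liver type, was at 48.7, 49.8 and 56.2 CPM in the controls and 51.2, 81.4 and 61.2 CPM in the Cre libraries. Only Cre 2 and Cre 3 stood above the controls, and the log2 fold change was 0.33 ± 0.15 (edgeR adjusted p 0.435). Pfkp, the platelet type, was at 280.4, 281 and 258 CPM in the controls and 247, 219.6 and 255 CPM in the Cre libraries. All Cre values were below all control values, most in Cre 2, with a log2 fold change of -0.19 ± 0.07 (edgeR adjusted p 0.343). The share of Pfkl in the summed phosphofructokinase level per kilobase was 25.25, 25.7 and 29.5% in the controls and 28.6, 41.6 and 31.6% in the Cre libraries, where control 3 and Cre 1 were out of group order. The mean difference of 7.09 percentage points had an exact two-sided permutation p of 0.2 over libraries, where 3 against 3 cannot fall under 0.1. Pfkp and Pitrm1, a gene on the other strand, share 748 exon bases, 5.58% of the exon length of Pfkp, and without a stated strand setting their reads there cannot be told apart.

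Of the enzymes that make and remove the fructose bisphosphate activating phosphofructokinase, Pfkfb3 was at 58.7, 60.5 and 55.0 CPM against 62.2, 46.1 and 60.5 CPM. It was not the main form here. Pfkfb4, taken from a list of further glycolytic genes, held 86.0 ± 1.07% of the family's level per kilobase in controls and 84.9 ± 2.12% in Cre libraries, and Pfkfb3 11.65 ± 0.709% and 12.4 ± 2.07%.

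The rest of the route down to pyruvate was measured with small errors. Gpi1, glucose phosphate isomerase, was at 269, 248.7 and 263 CPM against 265, 264 and 266 CPM. Aldoa was at 1136, 1009 and 977 CPM against 995, 1115 and 961 CPM, and Tpi1, triose phosphate isomerase, at 125 ± 9.51 against 117 ± 3.66 CPM. These 3 overlapped between the groups, and the 95% interval of the log2 fold change was -0.10 to 0.14 for Gpi1, -0.22 to 0.17 for Aldoa and -0.25 to 0.06 for Tpi1. Gapdh, often used as a reference transcript, was at 601, 522 and 561 CPM in the controls and 555, 513 and 514 CPM in the Cre libraries, a log2 fold change of -0.09 ± 0.07. Pgk1, which makes the first ATP of the route, was at 47.8 ± 3.52 against 51.0 ± 4.71 CPM, and the enolase gene Eno1 at 197 ± 10.3 against 205 ± 10.4 CPM.

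Pgam1, phosphoglycerate mutase, and Pkm, pyruvate kinase, were the members of lower glycolysis whose groups did not overlap, in opposite directions. Pgam1 was at 21.3, 20.9 and 21.0 CPM in the controls and 21.7, 28.2 and 23.9 CPM in the Cre libraries, where Cre 1 was barely above control 1. Its log2 fold change was 0.23 ± 0.10 (edgeR adjusted p 0.382). Pkm was at 767, 703 and 682 CPM against 664, 635 and 659.7 CPM, a log2 fold change of -0.14 ± 0.06 (edgeR adjusted p 0.421). Counts per gene do not separate the splice forms PKM1 and PKM2. From hexokinase to lactate dehydrogenase 8 of 15 genes were above and 7 below control, and the median log2 fold change was 0.02.

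Lactate and mitochondrial oxidation are the main fates of pyruvate, and the 3 members at this branch (Ldha, Slc16a3 and Pdk1) had log2 fold changes of -0.05 to -0.25. In a wider list of 13 genes of pyruvate entry 9 were above control, with a median of 0.04. Ldha, which makes lactate, was at 519, 468 and 502 CPM against 480.3, 488 and 470.2 CPM, and its groups overlapped. Slc16a3 (MCT4), the lactate exporter of glycolytic cells, was at 92.5, 83.6 and 84.3 CPM in the controls and 71.3, 82.3 and 65.0 CPM in the Cre libraries. Each Cre value was below each control, although Cre 2 came close to control 2. The log2 fold change was -0.25 ± 0.09 (edgeR adjusted p 0.299). Pdk1, which blocks pyruvate dehydrogenase, was at 65.1, 60.8 and 58.8 CPM against 58.5, 50.8 and 54.8 CPM, a log2 fold change of -0.17 ± 0.07 (edgeR adjusted p 0.348). Its groups were separated by the small gap between control 3 and Cre 1.

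Another kinase of this family differed more than Pdk1. Pdk4, the form linked to fasting and fat use, was at 43.3, 44.6 and 36.1 CPM in the controls and 28.0, 22.3 and 28.3 CPM in the Cre libraries, with no overlap. Its log2 fold change was -0.66 ± 0.11, with an adjusted p of 0.146 in edgeR and 2.56e-05 in DESeq2, so that the call depends on the tool. In the summed level of the 4 Pdk genes per kilobase, Pdk4 held 30.5 ± 2.48% in controls and 23.2 ± 1.40% in Cre libraries (exact permutation p 0.1, the smallest possible). The complementary shares of Pdk2 (15.9 ± 1.30 against 19.53 ± 1.70%) and Pdk3 (33.1 ± 1.27 against 35.3 ± 0.665%) lay above control in all Cre libraries. Pdk1 held 20.5 ± 0.670 and 22.0 ± 0.675%. Pdk4 and other genes named below from the wider lists beyond the 2 most abundant of each were chosen after their values were seen.

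Fbp1 had the widest range of the 40. Its raw counts were 3, 0 and 210 in the controls and 233, 2646 and 5893 in the Cre libraries, which is 0.0498, 0 and 3.70 CPM against 3.94, 41.0 and 109 CPM. Controls 1 and 2 were at or under the floor, control 3 and Cre 1 were alike, and Cre 2 and Cre 3 stood more than 10 times above both. The ratio of group means was 41.2. The log2 fold change was 5.39 ± 1.46 with a 95% interval of 2.01 to 8.78 (edgeR adjusted p 0.194, DESeq2 adjusted p 0.251). It passed in edgeR without Cre 1 (adjusted p 0.0494) and when genes of low count were kept in (adjusted p 0.0130), over a range of 0.0130 to 0.628 among the alternatives. Its fitted log2 fold change ran from 4.19 without Cre 3 to 10.89 without control 3, which leaves controls at or under the floor, and was 7.78 in limma-voom. Fbp1 (ENSMUSG00000069805) is annotated at chr13:62864753-62888282 (GRCm38, minus strand) in 7 exon blocks. No annotated copy or exon overlap with another gene was found for it.

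**Figure D2:**
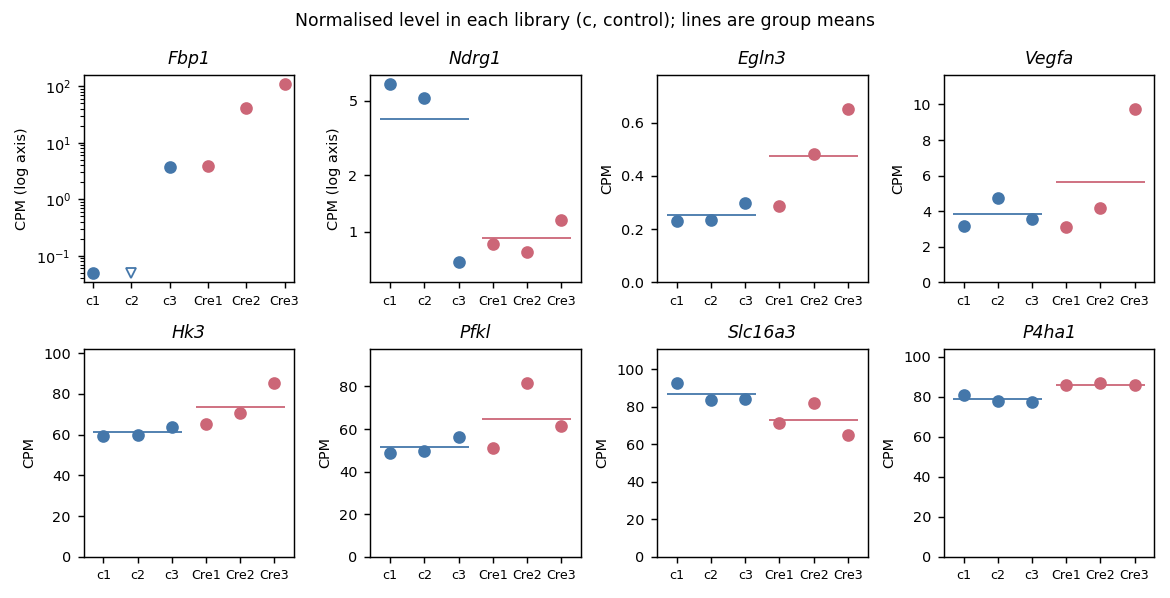
CPM of 8 members in each library, controls in blue and Cre libraries in red, lines marking group means (none for Fbp1), log axes for Fbp1 and Ndrg1 and axes from 0 for the others. The open triangle marks the floor for control 2, which had no Fbp1 counts. Control 3 sits with the Cre libraries for Ndrg1, at 0.686 CPM.

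Markers of interstitial and monocyte-derived macrophages were, like Fbp1, highest in Cre 2 and Cre 3, but did not follow it in the other libraries. The list of 16 genes includes C1qa, Apoe, Mmp12, Spp1 and Arg1. Its summed level was 514, 447 and 427 CPM in controls 1, 2 and 3 and 519, 1172 and 1808 CPM in Cre 1, 2 and 3. Control 3, where Fbp1 was at 3.70 CPM, thus had the lowest sum. On that list 12 of the 16 were above control (median log2 fold change 1.74), and 6 reached 1 CPM in every library. DESeq2 called 7 of the 16 higher and 1 lower, against 2.27% and 1.43% of tested genes, and edgeR called 0. Before adjustment, 10 rises and 1 fall had an edgeR p under 0.05, beside 6.54% and 6.28%. Groups were apart for 8 higher genes and 1 lower gene, beside 8.63% and 9.22%. The defining interstitial markers Folr2 and Lyve1 were under 2 CPM everywhere. The 6 B cell markers summed to 24.0 to 45.5 CPM in the controls and to 24.1, 48.0 and 146 CPM in the Cre libraries, most of the last from Igkc. On the macrophage list Cd163 alone was lower with no overlap (edgeR adjusted p 0.185, DESeq2 adjusted p 0.0489). It was at 0.714, 1.30 and 0.651 CPM against 0.423, 0.201 and 0.297 CPM. Of the 8 that were higher with no overlap, C1qa was at 0.681, 1.01 and 0.722 CPM against 1.88, 12.4 and 18.2 CPM. Mmp12, also among the 8, was at 7.97, 4.85 and 4.84 CPM against 23.9, 111 and 566 CPM. Alveolar epithelial markers summed to 147 to 244 CPM in the controls and 166, 95.6 and 116 CPM in the Cre libraries. In the controls that sum was led by Epcam (156, 129 and 55.1 against 35.4, 16.0 and 22.6 CPM), whereas 5 of the 7 epithelial markers were above control. The part of these cell types' markers in the Fbp1 result was not tested.

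Summed neutrophil markers (52.5 to 58.7 against 65.5 to 70.8 CPM) and T and NK cell markers (1.69 to 2.01 against 2.05 to 2.49 CPM) were higher in every Cre library than in every control. Proliferation genes (299.7 to 374 against 356 to 389 CPM), dendritic cell markers (7.39 to 9.46 against 6.55 to 9.79 CPM), endothelial and stromal markers (20.3 to 33.2 against 18.1 to 41.0 CPM) and red cell genes (2.27 to 15.1 against 2.79 to 7.83 CPM) overlapped. Eosinophil markers were nearly absent, at 0.0332 to 0.150 CPM in the controls and 0.0507 to 0.130 CPM in the Cre libraries. The sum of alveolar macrophage markers, 22015 to 25373 against 27039 to 40517 CPM, was mostly Chil3. Of these 14, which include Car4, 9 were below control (median -0.12 on the log2 scale). Siglecf, the usual surface marker, was at 752, 663 and 708 against 592, 464 and 585 CPM with no overlap (edgeR adjusted p 0.197, DESeq2 adjusted p 0.0127). Others of the 14 went the other way. DESeq2 called 3 higher, Chil3 among them, and 2 lower (Siglecf and Car4), against 2.27% and 1.43% of tested genes. The groups did not overlap for 3 higher and 4 lower ones, against 8.63% and 9.22% of tested genes. Ly6g was at 0 in every library.

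Set against its opponent, Fbp1 came near the level of phosphofructokinase transcripts in Cre 2 and passed it in Cre 3. The summed level of Pfkl, Pfkp and the minor muscle type Pfkm was 28.9, 29.0 and 28.5 CPM per kilobase in the controls and 26.8, 29.3 and 29.0 in the Cre libraries. Fbp1 was at 0.0293, 0 and 2.17 against 2.31, 24.1 and 64.3 CPM per kilobase. It thus equalled 0.101% or less of phosphofructokinase in controls 1 and 2 with their counts set to the floor, 7.62% in control 3, 8.63% in Cre 1, 82.2% in Cre 2 and 222% in Cre 3. On the log2 scale the ratio was -7.87 ± 3.60 in controls and -0.89 ± 2.40 in Cre libraries, a difference of 6.98 (exact two-sided permutation p 0.1, the smallest that 3 against 3 allows). Control 2 makes the control mean an upper limit.

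**Figure D3:**
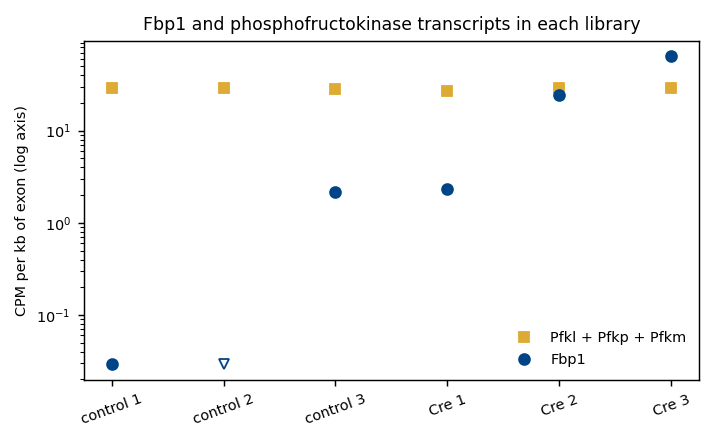
CPM per kilobase of exon on a log axis in each library for Fbp1 (circles) and for the sum of the 3 phosphofructokinase genes (squares). The squares stay between 26.8 and 29.3 while Fbp1 goes from the floor (open triangle, no counts) to 64.3.

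The other gluconeogenic genes did not follow Fbp1. Pcx, pyruvate carboxylase, which feeds both glucose synthesis and the TCA cycle, was at 4.27, 4.29 and 3.43 CPM in the controls and 3.89, 4.73 and 4.07 CPM in the Cre libraries, with overlapping groups. In a list of 6 further genes, 3 were testable and 0 passed in edgeR in either direction, with 0 at an unadjusted p under 0.05 and 0 in DESeq2. G6pc3, the widespread glucose 6-phosphatase, was at 42.7 ± 1.89 against 40.02 ± 1.51 CPM and Pck2, mitochondrial PEP carboxykinase, at 20.1 ± 2.01 against 20.04 ± 1.03 CPM. Fbp2, Pck1 and G6pc, the muscle bisphosphatase and the liver enzymes, were under the filter.

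The genes of HIF control differed from each other in how far they lay from control. Hif1a was at 109, 106 and 107 CPM in the controls and 107, 131 and 107 CPM in the Cre libraries, so that Cre 2 alone stood apart. Its log2 fold change was 0.10 ± 0.08, with a 95% interval of -0.10 to 0.29. Epas1, which encodes the related HIF2alpha, was at 51.0, 44.6 and 40.4 CPM against 61.8, 137 and 62.7 CPM. All Cre values were above the controls, Cre 2 by most, with a log2 fold change of 0.94 ± 0.30 (edgeR adjusted p 0.258, DESeq2 adjusted p 0.278). Per kilobase Epas1 made up 30.7 ± 2.27% of the alpha subunit level in controls and 42.9 ± 8.37% in Cre libraries, with no overlap (exact permutation p 0.1, 0.300 after Benjamini-Hochberg adjustment over 36 shares). Arnt, the beta subunit, was at 77.6 ± 3.22 against 76.9 ± 3.03 CPM. Its paralog Arnt2, the HIF regulator with the largest log2 fold change (3.32 ± 1.00), was at 0.282, 0.150 and 0.123 CPM against 0.220, 4.37 and 1.00 CPM (edgeR adjusted p 0.231, DESeq2 adjusted p 0.0743). Arnt2 was high in Cre 2 and Cre 3, while Cre 1 lay among the controls.

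Prolyl hydroxylases mark HIF alpha subunits for destruction, and Egln1 and Egln2 supplied nearly all of their transcripts. Egln1, the main oxygen sensor, was at 67.2, 66.9 and 66.5 CPM against 71.2, 60.5 and 61.4 CPM, overlapping around the narrow control range. It held 49.1 ± 0.838% of the family's level per kilobase in controls and 50.3 ± 2.14% in Cre libraries, and Egln2 50.6 ± 0.871 and 49.15 ± 1.98%. Egln3, which is itself induced by HIF, was at 0.232, 0.233 and 0.299 CPM in the controls and 0.287, 0.480 and 0.650 CPM in the Cre libraries. These are 14 to 17 and 17 to 35 counts, and Cre 1 lay among the controls. The log2 fold change was 0.88 ± 0.37 (edgeR adjusted p 0.378).

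Among 7 classical targets of HIF, 3 were above and 4 below control, and the median log2 fold change was -0.03. P4ha1, a collagen prolyl hydroxylase subunit, was at 81.0, 77.7 and 77.5 CPM in the controls and 85.8, 86.6 and 85.8 CPM in the Cre libraries, a small and even difference with no overlap. Its log2 fold change was 0.13 ± 0.04 (edgeR adjusted p 0.290). Bnip3, a mitophagy receptor, was at 9.62 ± 0.956 against 9.32 ± 0.119 CPM, and Higd1a, a small mitochondrial protein, at 12.3 ± 0.0824 against 11.3 ± 0.861 CPM. Vegfa, the endothelial growth factor, was at 3.15, 4.76 and 3.55 CPM against 3.09, 4.17 and 9.73 CPM. Only Cre 3 stood above the controls, and without Cre 3 the log2 fold change was -0.07. Ankrd37 was at 0.403 ± 0.0932 against 0.481 ± 0.189 CPM and Adm, the vasodilator peptide adrenomedullin, at 0.255 ± 0.121 against 0.248 ± 0.128 CPM, both on fewer than 42 counts a library.

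Ndrg1, a stress and hypoxia responsive gene, had the most negative log2 fold change of the 40. It was at 6.13, 5.19 and 0.686 CPM in the controls and 0.862, 0.775 and 1.152 CPM in the Cre libraries, or 369, 312 and 39 against 51, 50 and 62 counts. Controls 1 and 2 were high, whereas control 3 was the lowest of all 6, so that the groups overlapped. The log2 fold change was -2.11 ± 0.67 (edgeR adjusted p 0.263, DESeq2 adjusted p 0.176). Without control 3 it was -2.61 (edgeR adjusted p 0.0093), and without a filter on low counts the adjusted p was 0.0414, over a range of 0.0093 to 0.548 among the alternatives. For Ndrg1 and Fbp1 control 3 was thus closer to Cre 1 than to the other controls. Ndrg1 (ENSMUSG00000005125) is annotated at chr15:66929318-66969640 (GRCm38, minus strand).

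HIF binds a core of ACGTG or GCGTG, searched on both strands in the 250 bases before each RefSeq start (GRCm38.p6). Of the 40 members 37 had a promoter entry (not Slc2a3, Ndrg1 or Idh3a), and in 32 of these at least 1 start held a match, against 41.5% of 27025 genes. Counted by promoter, 42 of 54 member promoters and 38.6% of all 32851 held one. The background takes in all genes, whether expressed here or not, and was not matched for base content or starts per gene. The members were chosen by name, partly as hypoxia targets. Whether their share differs from that of like promoters was not tested. CACGTG, the E-box of other factors, counts as a match on each strand. The windows below show Fbp1, which had no match, beside 3 genes known as HIF targets. Matches are in capitals, and bases inside the annotated gene are left out.
Fbp1, chr13:62888283-62888532, minus strand: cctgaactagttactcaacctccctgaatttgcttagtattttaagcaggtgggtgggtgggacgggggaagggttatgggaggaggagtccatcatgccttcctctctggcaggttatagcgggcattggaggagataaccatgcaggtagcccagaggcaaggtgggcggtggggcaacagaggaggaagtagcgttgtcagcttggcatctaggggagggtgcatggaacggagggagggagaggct
Pgk1, chrX:106186850-106187099, plus strand: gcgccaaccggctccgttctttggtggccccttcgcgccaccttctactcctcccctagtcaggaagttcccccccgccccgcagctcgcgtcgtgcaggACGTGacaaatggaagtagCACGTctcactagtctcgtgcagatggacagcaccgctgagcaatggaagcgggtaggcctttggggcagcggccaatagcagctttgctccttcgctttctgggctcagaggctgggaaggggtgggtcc
Bnip3, chr7:138909520-138909756, minus strand: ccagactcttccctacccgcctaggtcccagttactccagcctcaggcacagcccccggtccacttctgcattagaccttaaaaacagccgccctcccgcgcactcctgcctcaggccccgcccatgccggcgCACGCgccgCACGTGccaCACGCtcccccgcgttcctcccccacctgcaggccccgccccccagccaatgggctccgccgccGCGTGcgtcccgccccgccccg
P4ha1, chr10:59323046-59323295, plus strand: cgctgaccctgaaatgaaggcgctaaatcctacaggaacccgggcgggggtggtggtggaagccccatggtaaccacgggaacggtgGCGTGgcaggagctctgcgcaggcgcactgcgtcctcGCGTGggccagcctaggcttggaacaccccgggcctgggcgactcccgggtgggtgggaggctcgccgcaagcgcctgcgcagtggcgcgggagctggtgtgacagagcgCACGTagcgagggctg
Pgk1 held 2 matches, Bnip3 5, of which 2 form the E-box, and P4ha1 3. A match is a run of letters and does not show binding, and the windows are short beside the reach of distant elements.

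The 9 members grouped with the TCA cycle, which include the cytosolic enzymes Idh1 and Mdh1, were close to control throughout. The largest size of log2 fold change among the 9 was 0.18, for Idh1. Among the mitochondrial ones the largest in size was -0.11, for Idh3a. Idh1, which makes NADPH in the cytosol, was at 425, 391 and 491 CPM against 458, 572 and 449 CPM, with Cre 2 highest and the groups overlapping (95% interval -0.09 to 0.45). Citrate synthase (Cs), the entry of the cycle, was at 219.7, 206 and 218 CPM against 219, 219 and 212 CPM, and its interval was -0.10 to 0.13. Idh2, the mitochondrial NADP form, was at 106 ± 9.18 against 103 ± 5.97 CPM and Idh3a, the catalytic subunit of the NAD form, at 56.3 ± 6.59 against 52.2 ± 3.22 CPM. Idh1 held 75.0 ± 3.29% of these 3 genes' level per kilobase in controls and 77.9 ± 1.51% in Cre libraries. Ogdh, of the oxoglutarate dehydrogenase complex, was at 393 ± 10.7 against 413 ± 18.4 CPM.

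Sucla2, an ATP-forming succinyl-CoA ligase subunit, was at 54.7 ± 2.64 against 56.6 ± 1.01 CPM and fumarase (Fh1) at 57.9 ± 3.94 against 59.3 ± 3.897 CPM. Mdh1, the cytosolic malate dehydrogenase, was at 148 ± 10.04 against 151 ± 6.09 CPM. Mdh2, the mitochondrial form, was at 190.0 ± 12.3 against 190.3 ± 11.0 CPM. Of the 9, 0 had an unadjusted edgeR p under 0.05 and 0 passed in DESeq2. Among 12 further TCA genes the log2 fold changes lay between -0.07 and 0.13, with 0 calls in edgeR, at an unadjusted p or in DESeq2. Sdha, the flavoprotein of succinate dehydrogenase, was at 317 ± 13.4 against 330.1 ± 13.9 CPM.

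**Figure D4:**
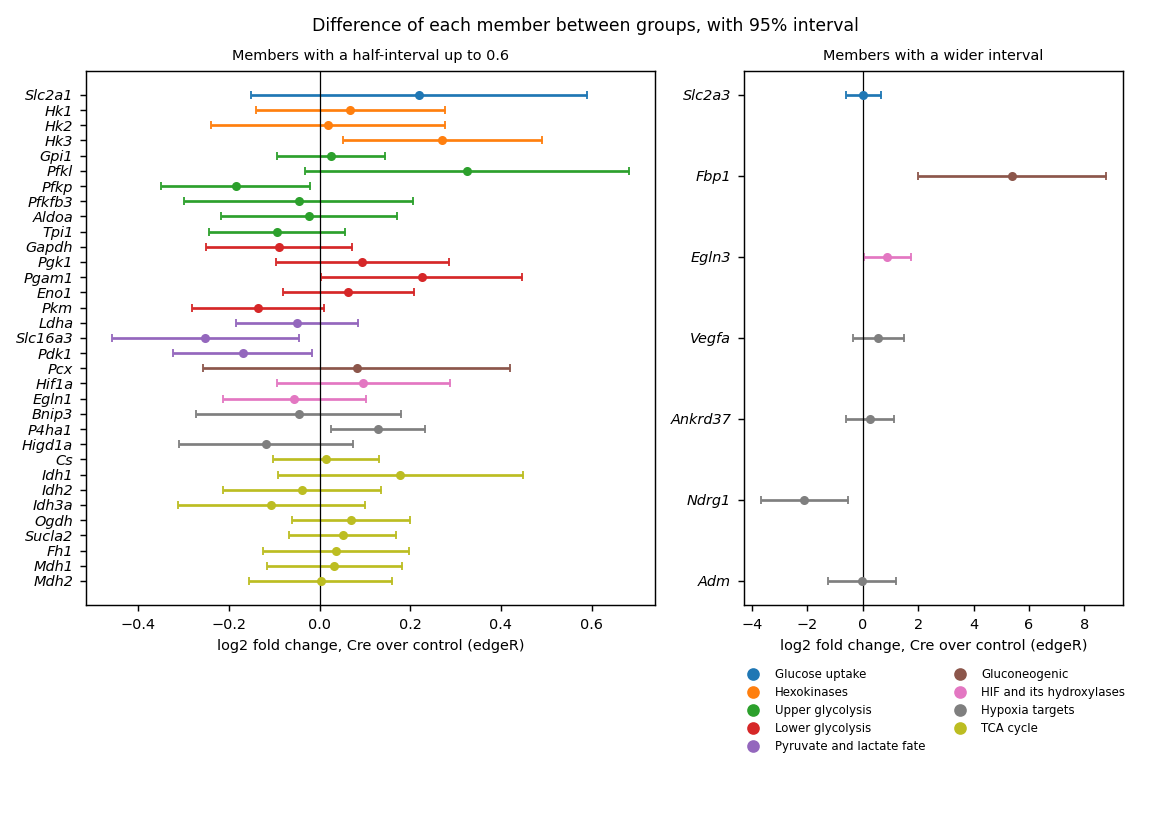
Log2 fold change of each of the 40 members with its 95% interval from edgeR, coloured by role, with the 7 members of wide interval in a panel of their own scale. Most intervals in the left panel cross zero, and the genes of the TCA cycle group, cytosolic Idh1 and Mdh1 included, lie between -0.11 and 0.18.

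The choice between paralogs at each step was described by shares of the summed level per kilobase, for 14 steps and the 36 shares of at least 1%. Shares did not overlap between the groups for 6 that were higher (16.7% of the 36) and 6 that were lower (16.7%). Shares within a step sum to 100%, so that these are not separate findings. No background from shares of other gene families was computed. For levels of single genes, an unlike measure, 8.63% of tested genes were higher and 9.22% lower with no overlap. Each of the 12 had an exact permutation p of 0.1, the smallest possible, and 0.300 after adjustment. Aldoc, the brain aldolase, held 6.20 ± 0.627% of aldolase in controls and 7.86 ± 0.823% in Cre libraries, at 83.8, 67.0 and 80.5 CPM against 86.2, 120.1 and 88.8 CPM (edgeR adjusted p 0.351). Pgam1 held 84.8 ± 1.03 against 88.0 ± 1.61% of phosphoglycerate mutase, the rest being the muscle form Pgam2. Ldhb, the lactate dehydrogenase of oxidative tissues, was at 0.199, 0.116 and 0.370 CPM against 0.592, 3.28 and 1.99 CPM, so that Ldha still held 99.9 ± 0.0529 and 99.15 ± 0.571%. The log2 fold change of Ldhb was 3.10 ± 0.67, called by DESeq2 (adjusted p 7.06e-05) and not by edgeR (adjusted p 0.157). Among lactate transporters Slc16a3 held 60.9 ± 2.08 against 56.0 ± 3.70% and Slc16a1 30.25 ± 2.83 against 34.2 ± 3.80%, with overlap. Among glucose transporters Slc2a1 held 40.7 ± 4.27 against 45.7 ± 4.65%, and Slc2a6 13.6 ± 0.833 against 9.92 ± 1.55% with no overlap.

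**Figure D5:**
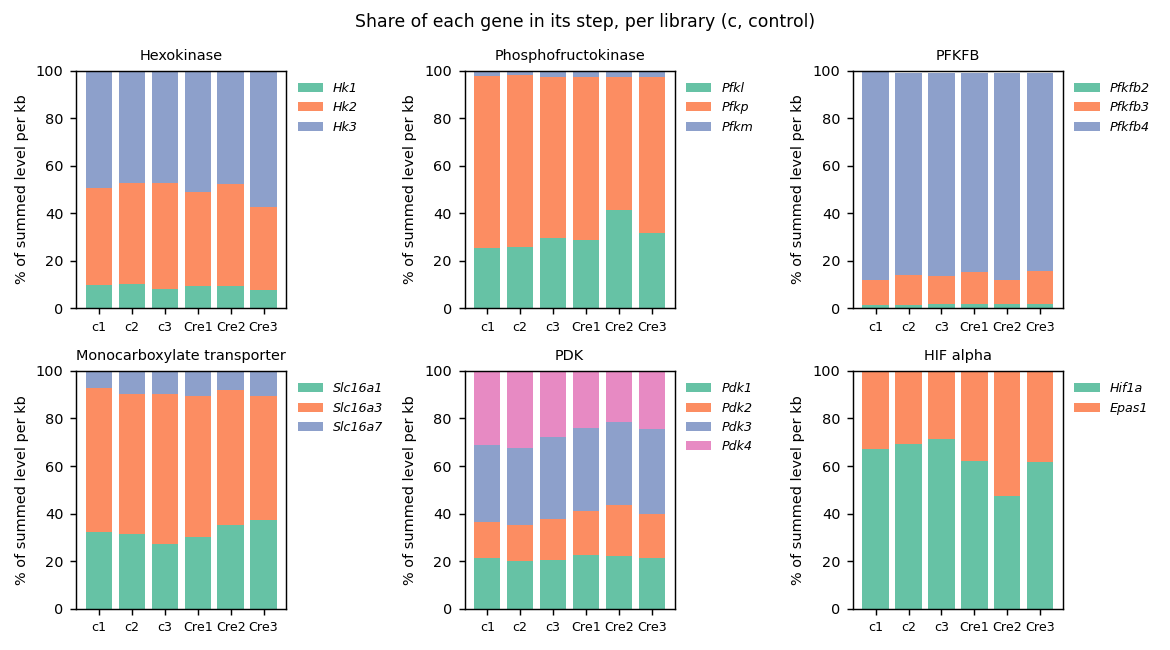
Stacked bars from 0 to 100% show, per library, the share of each gene in the summed CPM per kilobase of its step for 6 steps (genes under 1% are left out). Hk3 is largest in Cre 3 at 57.4%, Pfkl is largest in Cre 2 at 41.6%, and the Epas1 share is above all controls in every Cre library.

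Around the 40 members, 10 lists of related genes held 139 genes, of which 114 could be tested. By edgeR 0 of these passed in either direction, while an unadjusted p under 0.05 took in 13 higher and 10 lower, beside 6.54% and 6.28% of all tested genes, which are also the shares to set beside the counts of single lists below. DESeq2 called 2 higher (Ldhb and Acod1) and 2 lower (Pdk4 and Bhlhe40), where its background was 2.27% higher and 1.43% lower. Their median log2 fold change was 0.005. Of the 13 tested genes of pyruvate entry, 2 were higher and 3 lower at an unadjusted edgeR p under 0.05. The pyruvate dehydrogenase subunits Dld and Pdha1 were at 138 ± 6.91 against 144 ± 7.52 CPM and, respectively, 79.9 ± 2.86 against 87.2 ± 2.06 CPM. Acod1, which turns a TCA intermediate into the antimicrobial itaconate and stands in the table as Irg1, was at 0.614, 0.648 and 0.493 CPM against 0.473, 2.79 and 3.66 CPM, high in Cre 2 and Cre 3 only (DESeq2 adjusted p 0.0173, edgeR adjusted p 0.264). Among the 13 tested genes of that anaplerotic list, 3 were higher and 1 lower at an unadjusted p. Its most abundant members, Glud1 and Acly, were at 589 ± 22.0 against 566 ± 21.9 CPM and 460.2 ± 31.4 against 521 ± 33.4 CPM.

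The pentose phosphate genes Taldo1 and Pgd were at 727 ± 36.4 against 725 ± 29.7 CPM and 563 ± 45.3 against 589.8 ± 107 CPM, and 1 of 7 was higher at an unadjusted edgeR p under 0.05. Of 10 tested glycogen genes 2 were higher, and Pygl, the liver glycogen phosphorylase, was at 641 ± 58.1 against 640.0 ± 36.7 CPM and glycogenin (Gyg) at 168 ± 10.9 against 182 ± 3.88 CPM. Of 15 tested further glycolytic genes 2 were higher and 1 lower, and Pfkfb4 was at 277 ± 23.1 against 248 ± 9.70 CPM. Of 4 further glucose transporters 0 were, with Slc2a8 at 22.1 ± 1.00 against 22.4 ± 1.03 CPM and Slc2a9 at 15.0 ± 1.44 against 14.7 ± 1.42 CPM. Among 13 tested HIF regulators 2 were higher and 2 lower, and among 24 further hypoxia targets 1 was higher and 3 lower. Of these Bhlhe40, a transcriptional repressor, was at 454, 457 and 475 CPM against 364, 367 and 424 CPM with no overlap (DESeq2 adjusted p 0.0224, edgeR adjusted p 0.195). Anxa1, annexin A1, was at 639 ± 38.2 against 615 ± 21.2 CPM.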

How the data were processed

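Poly(A) RNA of 6 libraries, 3 per group, was measured. The authors deposited whole-number counts per gene without normalization, in 1 table. Per the submitters' processing notes the build was GRCm38, with STAR 2.6.1, featureCounts 1.6.4, cutadapt 2.5, edgeR 3.26.5 and DESeq2 1.22.1 among the tools named without roles. Annotation release, strand setting and handling of multi-mapped reads: not given in the sources used here. GENCODE M21, also GRCm38, gave positions and exon lengths for 45229 of 46078 identifiers.

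Columns were assigned by the library names in the labels. The test on counts was that of edgeR 4.0.16 under R 4.3.3 (low genes removed by filterByExpr at a minimum of 10, TMM, glmQLFit, glmQLFTest, two-sided, Benjamini-Hochberg over 15147 genes, threshold 0.05, no block). The biological coefficient of variation was 14.4%. Standard errors are the log2 fold change divided by the root of F. The code was tested on simulated counts. Shares and ratios were tested by exact permutation over libraries, and 2 steps (pyruvate kinase and fructose bisphosphatase) were left out of the shares after seeing their counts. Alternatives were RLE scaling, DESeq2 1.42.0, limma-voom (limma 3.58.1), no filter, at least 5 CPM in 3 libraries, the replicate block, leaving out each library and, for ratios, the longest transcript as length. Promoters are from RefSeq and copies were sought with BLAST+ 2.17.0.

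All members were named, with Car4 and the 2 most abundant tested genes of each further list where fewer than 2 passed. The members, lists and tests were chosen with earlier results of these data known. Nothing states that the libraries of a group came from separate sorts, so p-values measure the spread between these libraries. Libraries of 1 group differed beyond counting noise (chi-square per degree of freedom 19.6 to 51.4). Floors cover counting error only. Results for 2 genes of the lists are not reported here.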

Additional observations from a re-analysis of the deposited data

How the results depend on the processing

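Of the 40 members, 0 were called in either direction by edgeR, and this held under RLE scaling, DESeq2, limma-voom and the replicate block. It held also for the 32 members left by the filter of 5 CPM, which removes Fbp1 and Ndrg1. Without a filter on low counts 1 was higher (Fbp1) and 1 lower (Ndrg1). Leaving out 1 library gave 0 to 1 higher (Fbp1, without Cre 1) and 0 to 1 lower (Ndrg1, without control 3). At an unadjusted p under 0.05 the 5 higher and 4 lower became 2 and 3 with limma-voom, 3 and 3 with the filter of 5 CPM, 2 and 2 with the replicate block, and 1 to 6 and 0 to 6 over the libraries left out (lowest without control 2 or Cre 3 and without control 1). In the further lists the 0 and 0 became 2 and 2 in DESeq2, 4 and 1 without a filter and 0 to 4 and 0 to 1 over the libraries left out, both highest without Cre 1. Over all genes edgeR called 1 higher and 1 lower, 8 and 2 with the block, 344 and 217 in DESeq2, 340 and 183 without a filter, 249 and 37 without Cre 1, 15 and 52 without control 3 and 8 and 1 without Cre 2.

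The labels do not state whether the replicate numbers pair the libraries. Deviations from the group means correlated at -0.0333, -0.187 and 0.0437 for equal numbers and at -0.209 to 0.248 for unequal ones. With 3 libraries per group these values cannot decide whether libraries were paired. Over the libraries left out, the median log2 fold change of upper glycolysis ran from -0.0803 to 0.00549, that of pyruvate and lactate fate from -0.226 to -0.120, and that of the gluconeogenic pair from 2.15 to 5.43, highest without control 3. Under the filter of 5 CPM the gluconeogenic pair had no value. The log2 difference of the ratio, Fbp1 against phosphofructokinase, lay between 5.94 and 9.06 over the libraries left out. Shares that did not overlap numbered 6 to 10 higher and 6 to 11 lower over the libraries left out, most without control 3 and, for higher ones, also without Cre 2. Of 472 member values under 12 alternatives 441 kept their sign. No alternative scaling moved the median of all genes by 0.1. Each scaling holds the bulk of genes level by design, so that this median does not test the scaling. Depth limits Adm, Ankrd37, Egln3 and, in 2 controls, Fbp1.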
